A study of Drosophila melanogaster with 14 samples.

Results

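Testes of Drosophila melanogaster mutant for the gene CG9879 were compared with wild-type (wt) testes by sequencing of polyadenylated RNA. The CG9879 group held 2 libraries and the wt group 2, and these 4 were chosen by their genotype labels from the 14 libraries of 7 genotypes in the series. Per the labels, every library came from 50 testes of adult males 3 days old, kept at 23°C, and the replicates are biological. The labels give the mutant genotype only as CG9879 and the reference genotype as wild type. The allele, the genetic background and any marker on the mutant chromosome are not stated in the labels. The other genotypes, bam, comr, can, mip40 and the double mutant mip40/bam, served here to estimate the spread between replicates, and some of their levels are given for context.

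In the testis of the fly, a stem cell at the tip divides to give spermatogonia, which enclosed by somatic cyst cells become spermatocytes, pass through meiosis and differentiate as spermatids. Most genes that spermatids need are already transcribed in spermatocytes. Regulators of 2 kinds, tMAC and the tTAFs, switch it on: tMAC is a chromatin complex used in the testis, and tTAFs are testis versions of the proteins that bind the TATA-binding protein. Mutants of either set arrest as spermatocytes.

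Levels are in FPKM, that is, fragments corrected for the length of the transcript and the total of the library. The intervals in the tables imply 3120000 and 3500000 fragments in the CG9879 libraries and 3210000 and 3370000 in the wt libraries, so 1 FPKM in a short gene is only a few fragments. The tables of CG9879 and mip40/bam use an annotation with FBgn identifiers, and those of wt and the other genotypes one with symbols. Annotation and genotype therefore cannot be told apart in them, except through a comparison the authors deposited separately, in which both groups share 1 annotation and the mutant is called kol. One library of each group, CG9879 replicate 2 and wt replicate 1, held accessory gland transcripts, described below. All differences were tested with limma on log2(FPKM + 1) over 12971 genes, and a gene was called at a Benjamini-Hochberg adjusted p under 0.05. Log2 fold changes are of CG9879 over wt on that scale, on which changes of weakly expressed genes come out too small.

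CG9879 itself was nearly lost from the mutant. The gene (FBgn0031444, named Trf4 in the reference annotation) lies on chromosome 2L, at 2665062 to 2666265 on the plus strand of the BDGP6 build. CG9879 has different ends in the FBgn and symbol annotations, and was left out of a fit limited to genes with the same ends. It had 0.756 and 1.30 FPKM in the CG9879 testes, or 3 and 6 fragments, against 64.0 and 53.4 FPKM in the wt testes, or 262 and 228 fragments. The means were 1.03 ± 0.38 FPKM in CG9879 and 58.7 ± 7.49 FPKM in wt (SD, n = 2 each). The groups did not overlap, and the log2 fold change was -4.89 (SE 0.17, limma adjusted p = 1.8e-07). In the authors' deposited table the gene stands at 0.842 in the mutant and 58.3 in wt, with a q-value of 0.239, and is not marked as significant there. The fold change was -5.08 to -4.69 (log2) with any 1 of the 4 libraries left out.

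The transcript of CG9879 was highest in wt among the 7 genotypes. It reached 22.7 and 25.4 FPKM in can and 10.9 and 13.6 FPKM in mip40 testes, and 0.396 and 0.303 FPKM in comr testes. The 4 bam and mip40/bam libraries, from testes blocked before the spermatocyte stage, list it at 0. Neighbouring levels in this order did not overlap between replicates, although those of comr and of the CG9879 mutant rest on a few fragments.

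**Figure D1:**
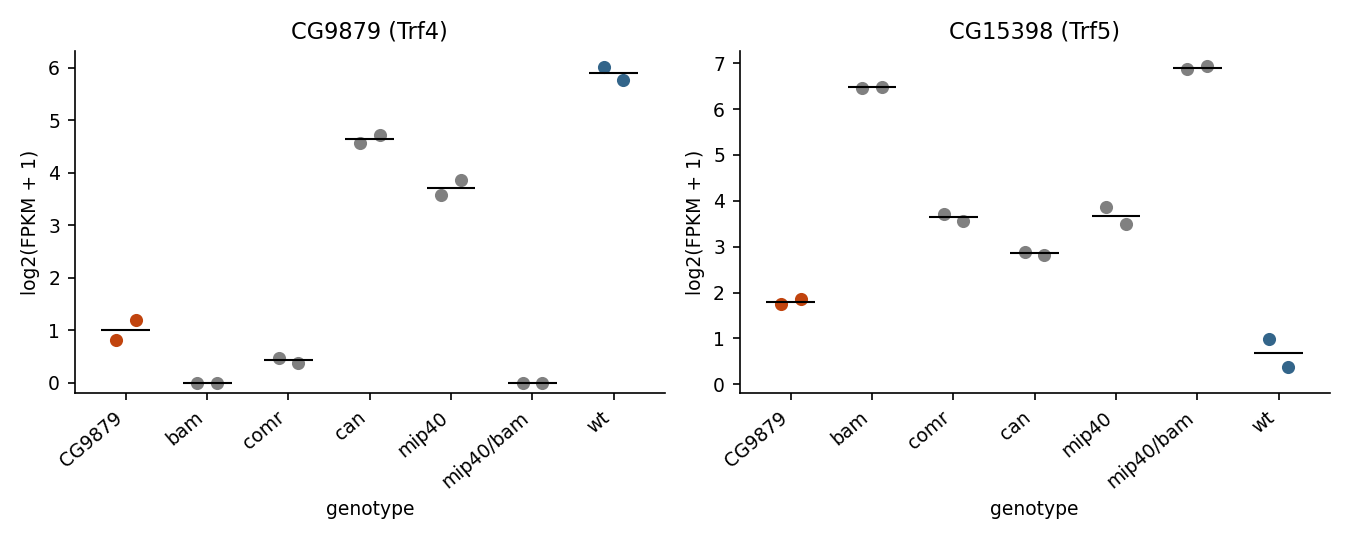
Level of CG9879 (left) and of its neighbour CG15398 (right) in each library, as log2(FPKM + 1) on the vertical axis, for the 7 genotypes on the horizontal axis. Each point is 1 library and each line the mean of 2. CG9879 is near the floor in its own mutant and highest in wt, while CG15398 is highest in bam and mip40/bam and lowest in wt.

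Of the 10 nearest tested genes, 5 on each side, 1 rose and 0 fell, while 11.5% of all tested genes were called. The one that rose was CG15398 (FBgn0031446, named Trf5 in the reference annotation). It lies 29.1 kb from the end of CG9879 on 2L, at 2695330 to 2696437 on the minus strand. It had 2.36 and 2.62 FPKM in CG9879 testes, against 0.979 and 0.308 FPKM in wt testes, and was called (log2 fold change 1.12, SE 0.19, limma adjusted p = 0.00557). These are 7 and 9 fragments in CG9879 and 3 and 1 fragments in wt, and the 4 libraries fitted alone gave an adjusted p of 0.176. For scale, the same gene had 87.1 and 88.9 FPKM in bam testes and 6.399 and 6.10 FPKM in can testes.

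The genes on either side of CG9879 did not pass the test. Prosbeta4R1 and Prosbeta4R2, testis copies of a proteasome subunit, lie just upstream. Prosbeta4R1 had 103.1 and 88.3 FPKM in CG9879 testes, against 99.6 and 87.7 FPKM in wt testes, and the groups overlapped (log2 fold change 0.03, SE 0.26). CG33125 had 130.0 and 138.7 FPKM in CG9879 testes, against 165.9 and 168.1 FPKM in wt testes, and did not pass the test (log2 fold change -0.31, SE 0.11, limma adjusted p = 0.107). Within 50 kb of CG9879, 11 genes were tested, of which 1 rose, CG15398, and 0 fell, beside the 11.5% called over all genes.

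Across all genes, far fewer passed the test than in the other mutants. Of 12971 genes, 1492 were called, 11.5%, with 553 (4.26%) higher and 939 (7.24%) lower in CG9879. A change of at least 2-fold was found for 536 genes (4.13%), of which 173 rose (1.33%) and 363 fell (2.8%). The 2 CG9879 libraries lay wholly above or below the 2 wt libraries in 6458 genes, 49.8%, so a lack of overlap alone says little. For scale, the same fit called 71.4% of genes in can, 73.2% in mip40, 76.4% in comr and 78.6% in bam against wt, comparisons that share the wt libraries. The median log2 fold change over all genes was 0.00 and the median absolute change 0.20. The count depended on which libraries set the spread: the 4 libraries fitted alone called 325 genes, and leaving out wt replicate 1 gave 989.

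The calls were set beside the authors' own comparison. Of the 1492 genes called, 1015 had transcripts tested in the authors' deposited table, and 97.2% of these changed in the same direction there. Among called genes with the same start and end in both annotations and no exon shared with another gene the share was 99.8%, 620 of 621. Among genes not called it was 86.0%. The tables were made from the same libraries, so this compares annotations and software, not new samples. The authors' deposited table marks 180 of 11422 tested transcripts (1.58%) as significant, 99 higher and 81 lower in the mutant. Of the genes so marked, 116 were also called here in the same direction, and 0 in the opposite direction. The 116 were 52 of the 91 marked higher that were tested here and 64 of the 67 marked lower. Leaving out each of the 4 libraries in turn kept 92 of these 116 calls, and the 4 libraries alone kept 37.

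**Figure D2:**
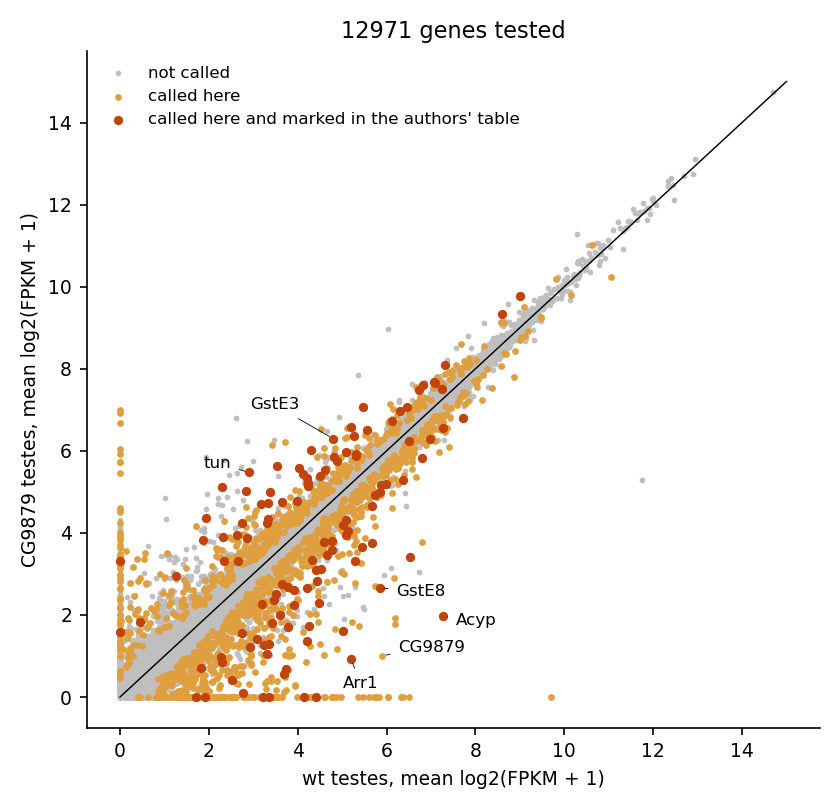
Mean log2(FPKM + 1) of each tested gene in CG9879 testes (vertical axis) and wt testes (horizontal axis). Grey points were not called, orange points were called here, red points were also marked in the authors' deposited table, and the line marks equal levels. Most genes lie on the line, and the points along both axes are genes listed at 0 in one group.

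The genes of sperm formation were examined next. The labelled tissue was borne out by its markers. The sperm tail gene dj had 1496 and 1643 FPKM in CG9879 testes, against 1860 and 1738 FPKM in wt testes. Mst87F, also of the sperm tail, had 6331 and 6964 FPKM in CG9879 testes, against 7070 and 6218 FPKM in wt testes. Neither passed the test, and Mst87F shares exons with a noncoding gene. betaTub85D, the testis tubulin, had 1911 and 2035 FPKM in CG9879 testes, against 1749 and 1845 FPKM in wt testes (log2 fold change 0.14, SE 0.16, limma adjusted p = 0.688).

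Of 36 tested genes of spermatid differentiation, 1 rose and 2 fell (8.33%, against 11.5% of all genes), and their median log2 fold change was 0.04, against 0.00 over all genes. The summed level of the list was 62670 and 65930 FPKM in CG9879 testes, against 60560 and 58960 FPKM in wt testes. gdl, a gene with a male germline transcript, fell to 235.8 and 209.6 FPKM in CG9879 testes, against 469.8 and 465.2 FPKM in wt testes (log2 fold change -1.07, SE 0.13, limma adjusted p = 0.000775). It shares exons with other genes. snky, needed for the breakdown of the sperm membrane after fertilization, fell to 20.4 and 19.8 FPKM in CG9879 testes, against 29.1 and 29.0 FPKM in wt testes. janB rose to 2077 and 2045 FPKM in CG9879 testes, against 1609 and 1529 FPKM in wt testes, and shares exons with janA. The calls of snky and janB were lost whichever of the 4 libraries was left out, with adjusted p up to 0.122 for snky and 0.135 for janB.

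The cup and comet genes, which are transcribed late, after meiosis, and whose RNA gathers at the ends of spermatid bundles, are a further list. Of 18 tested, 1 rose and 1 fell (11.1%, against 11.5% of all genes), with a median log2 fold change of -0.01. s-cup rose to 5.80 and 6.41 FPKM in CG9879 testes, against 3.19 and 3.25 FPKM in wt testes (log2 fold change 0.75, SE 0.13, limma adjusted p = 0.00523), a call that was lost with a pseudocount of 0.1 (adjusted p = 0.165). hubl fell to 86.1 and 100.9 FPKM in CG9879 testes, against 163.5 and 165.3 FPKM in wt testes (log2 fold change -0.81). It shares exons with other genes, and its call was lost without CG9879 replicate 1, wt replicate 1 or wt replicate 2 (adjusted p up to 0.0692).

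Genes of the meiotic cell cycle gave 2 rises and 0 falls among 15 (13.3%, against 11.5% of all genes). ord, which holds sister chromatids together in meiosis, rose to 32.5 and 30.0 FPKM in CG9879 testes, against 20.4 and 18.6 FPKM in wt testes (log2 fold change 0.65, SE 0.07, limma adjusted p = 0.000629). rux, an inhibitor of cyclin A and its kinase, rose to 91.8 and 87.9 FPKM in CG9879 testes, against 70.7 and 72.5 FPKM in wt testes (log2 fold change 0.32), and its adjusted p was 0.0542 without wt replicate 1. The regulators at meiotic entry did not pass the test. twe, the meiotic Cdc25 phosphatase, had 106.4 and 97.4 FPKM in CG9879 testes, against 99.5 and 98.9 FPKM in wt testes. bol, which promotes the translation of twe, had 701.4 and 756.7 FPKM in CG9879 testes, against 697.1 and 713.4 FPKM in wt testes.

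Of 14 genes of stem cells and spermatogonia, 0 rose and 1 fell (7.14%, against 11.5% of all genes). This was vas, an RNA helicase of the germline, at 8.77 and 9.21 FPKM in CG9879 testes, against 15.1 and 16.5 FPKM in wt testes (log2 fold change -0.75, SE 0.07, limma adjusted p = 0.000114). In bulk testes, fewer cells of a type and less RNA per cell cannot be told apart. Of 31 genes of DNA replication, 1 rose and 2 fell (9.68%, against 11.5% of all genes), with a median of 0.00. PCNA, the sliding clamp, fell to 14.6 and 13.4 FPKM in CG9879 testes, against 18.4 and 18.4 FPKM in wt testes (log2 fold change -0.37, limma adjusted p = 0.00807, and 0.104 without both libraries with accessory gland transcripts). Mcm7, of the replicative helicase, fell to 2.69 and 2.65 FPKM in CG9879 testes, against 4.69 and 4.65 FPKM in wt testes (log2 fold change -0.63). Orc5, of the origin recognition complex, rose with a log2 fold change of 0.74. Mcm7 and Orc5 share exons with other genes.

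Among the tMAC and tTAF genes and testis chromatin regulators, 3 of 14 rose and 3 fell (42.9%, against 11.5% of all genes), with a median log2 fold change of -0.14. With the 4 libraries fitted alone none of these 6 was called (adjusted p 0.0623 to 0.205). mip40, a subunit of tMAC, rose to 39.3 and 43.1 FPKM in CG9879 testes, against 22.8 and 20.9 FPKM in wt testes (log2 fold change 0.89, SE 0.07, limma adjusted p = 6.89e-05), and the authors' deposited table marks it as well, at 41.6 against 21.8. topi, a zinc finger subunit of tMAC, rose to 62.9 and 56.9 FPKM in CG9879 testes, against 39.4 and 38.7 FPKM in wt testes (log2 fold change 0.60, SE 0.07, limma adjusted p = 0.000876). The groups did not overlap for either gene.

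Taf12L, a tTAF, rose to 123.6 and 130.1 FPKM in CG9879 testes, against 93.1 and 89.0 FPKM in wt testes (log2 fold change 0.47, SE 0.09). can, the tTAF mutated elsewhere in the series, fell to 12.03 and 10.01 FPKM in CG9879 testes, against 15.7 and 15.4 FPKM in wt testes (log2 fold change -0.47, SE 0.12). mia, another tTAF, fell to 11.9 and 10.1 FPKM in CG9879 testes, against 17.1 and 16.7 FPKM in wt testes (log2 fold change -0.58, SE 0.09). The members thus moved in both directions by less than 2-fold, apart from achi at -1.05, whose reads are hard to tell from those of its near copy vis. The call of can was lost without CG9879 replicate 2 or either wt library (adjusted p up to 0.159), and that of Taf12L without replicate 2 of either group (up to 0.0598).

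Other subunits did not pass the test. aly had 12.1 and 8.85 FPKM in CG9879 testes, against 14.1 and 10.7 FPKM in wt testes, and the groups overlapped. comr had 5.36 and 5.395 FPKM in CG9879 testes, against 6.45 and 8.48 FPKM in wt testes (log2 fold change -0.40, SE 0.12, limma adjusted p = 0.0739). sa, a tTAF, had 36.1 and 28.3 FPKM in CG9879 testes, against 40.8 and 35.2 FPKM in wt testes (log2 fold change -0.24, SE 0.12).

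The testis-specific proteasome subunits gave 1 rise and 0 falls among 14 (7.14%, against 11.5% of all genes), with a median of 0.07. The rise was Prosalpha4T1, at 76.9 and 65.1 FPKM in CG9879 testes, against 56.9 and 50.8 FPKM in wt testes, with an adjusted p of 0.0466 that reached 0.209 and lost the call without CG9879 replicate 1 or either wt library. Of 7 tested Y-linked genes, 1 rose and 1 fell (28.6%, against 11.5% of all genes). Pp1-Y1, a Y-linked protein phosphatase gene, rose to 5.76 and 5.88 FPKM in CG9879 testes, against 0.359 and 0 FPKM in wt testes, or 16 and 19 fragments against 1 and 0. Its log2 fold change was 2.55 (SE 0.18, limma adjusted p = 2.42e-05), and 0.0506 was its limma adjusted p with the 4 libraries fitted alone. The 10 libraries of the other genotypes had 0 to 0.663 FPKM, so it stood out in the CG9879 testes. The authors' deposited table has Pp1-Y1 at 11.4 in the mutant and 0.406 in wt, with a q-value of 0.844, and does not mark it. kl-2, a dynein heavy chain of the sperm tail, fell to 7.09 and 6.28 FPKM in CG9879 testes, against 10.8 and 10.9 FPKM in wt testes (log2 fold change -0.62), a call lost with a pseudocount of 0.1 (adjusted p = 0.0693). kl-5 had 19.6 and 17.9 FPKM in CG9879 testes, against 16.7 and 20.3 FPKM in wt testes, and did not pass the test.

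**Figure D3:**
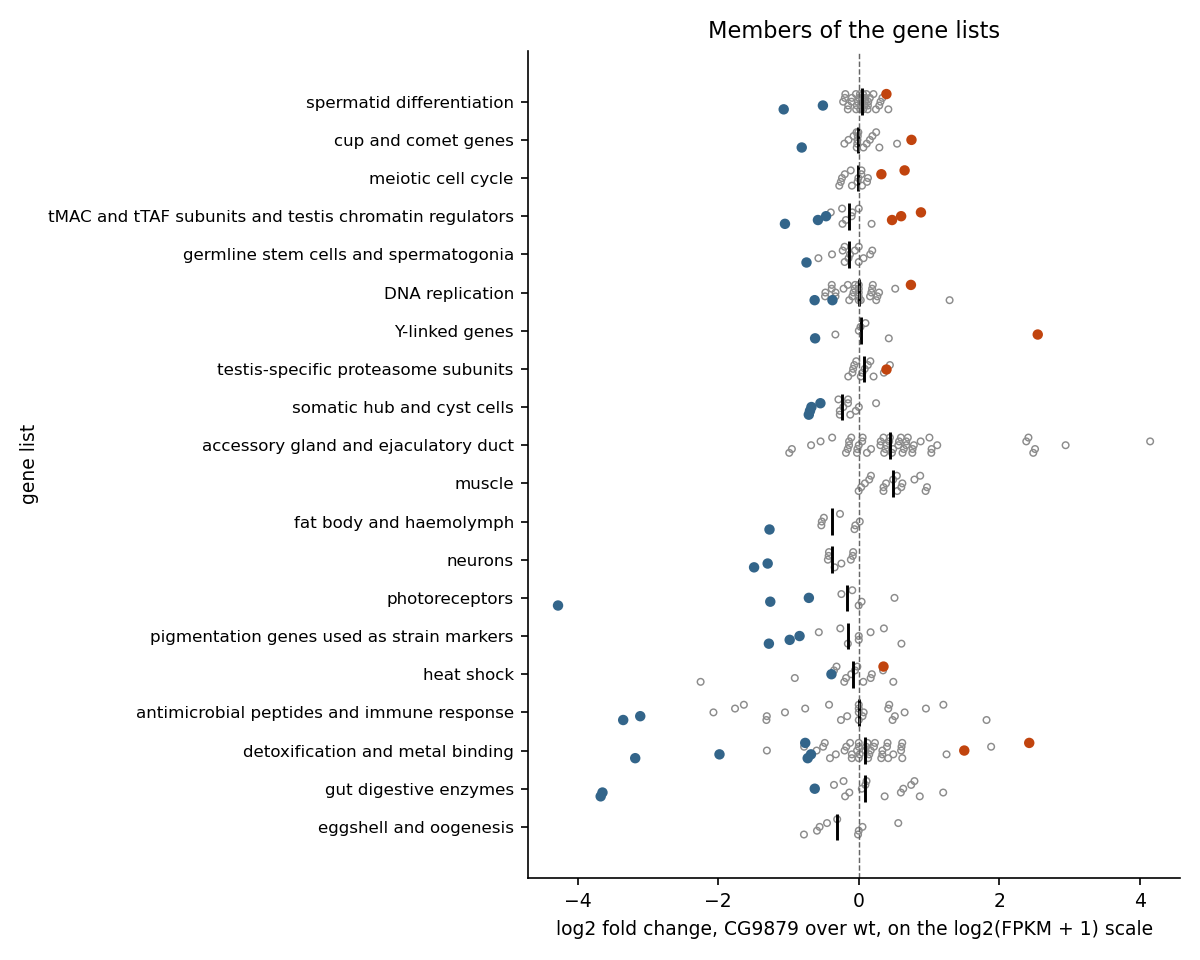
Log2 fold change of CG9879 over wt (horizontal axis, on the log2(FPKM + 1) scale) for the tested members of 20 gene lists (vertical axis). Filled points were called, red higher and blue lower in CG9879, open points were not called, and black bars are list medians. Most members of the germline lists lie near 0, and single genes lie far out on both sides, from Arr1 at -4.28 to the uncalled accessory gland gene Dup99B at 4.15.

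Markers of other cells were examined as well. The list of accessory gland and ejaculatory duct genes, organs that lie next to the testis and make seminal fluid, summed to 93.9 and 17470 FPKM in CG9879 testes, against 9166 and 39.0 FPKM in wt testes. It was thus high in CG9879 replicate 2 and wt replicate 1. The sex peptide gene SP, for example, was listed at 0 and 1240 FPKM in CG9879 testes, against 559.1 and 0 FPKM in wt testes. None of the 49 tested members was called. A fit without these 2 libraries leaves 1 library in each group and takes the spread from the other genotypes. Its log2 fold change was -4.95 for CG9879, with a median of 0.00 over all genes. Some of the main calls were lost in that fit and others were gained. The authors' deposited table, which pools the libraries of a group, marks 9 members of this list as higher in the mutant. The part of these transcripts in other results was not tested beyond that fit.

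Muscle genes, of the sheath around the testis, had a median log2 fold change of 0.49 over 17 genes, with 0 called. Their summed level was 875.4 and 936.8 FPKM in CG9879 testes, against 671.8 and 669.8 FPKM in wt testes, and the groups did not overlap. Mhc, the muscle myosin heavy chain, had 27.5 and 30.1 FPKM in CG9879 testes, against 13.8 and 16.8 FPKM in wt testes (log2 fold change 0.87, SE 0.28, limma adjusted p = 0.0842). The part of muscle RNA in other results was not tested.

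Of 14 genes of the somatic hub and cyst cells, 0 rose and 4 fell (28.6%, against 11.5% of all genes), with a median of -0.24. These were so, aop, zfh1 and ptc, with log2 fold changes of -0.71 to -0.55. zfh1, a transcription factor of cyst stem cells, was at 2.12 and 2.85 FPKM in CG9879 testes, against 4.18 and 4.89 FPKM in wt testes. Both aop and zfh1 share exons with other genes. The call of so was lost in every fit with 1 library left out, and that of aop likewise, with adjusted p up to 0.204 and 0.144. That of zfh1 was lost without CG9879 replicate 1 or wt replicate 2 (up to 0.0836), and that of ptc, the Hedgehog receptor, without CG9879 replicate 2 or either wt library (up to 0.0935).

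Low-level markers of cells that do not belong to the testis fell in a few cases. Of 10 tested neuronal genes 0 rose and 2 fell, Rdl and nSyb, while 11.5% of all genes were called. The median log2 fold change of this list was -0.38, against 0.00 over all genes. nSyb had 2.50 and 3.31 FPKM in CG9879 testes, against 8.76 and 8.32 FPKM in wt testes. Its log2 fold change was -1.30 (SE 0.18, limma adjusted p = 0.00212), and its limma adjusted p with the 4 libraries fitted alone was 0.0952. Rdl, a GABA receptor subunit, had 0.297 and 0.330 FPKM in CG9879 testes, against 2.86 and 2.53 FPKM in wt testes (log2 fold change -1.49, SE 0.12, limma adjusted p = 4.58e-05). The authors' deposited table has Rdl the other way round, at 1.13 in the mutant and 0.481 in wt, summed over 3 transcripts. elav, the defining neuronal marker, was near 0 throughout, at 0.438 and 0 FPKM in CG9879 testes, against 0.525 and 0.517 FPKM in wt testes. The fat body and haemolymph list had 0 rises and 1 fall among 8 tested genes (12.5%, against 11.5% of all genes). This was Hml, of blood cells, at 1.10 and 0.877 FPKM in CG9879 testes, against 3.95 and 3.65 FPKM in wt testes (log2 fold change -1.27).

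Of 8 tested photoreceptor genes, 0 rose and 3 fell (37.5%, against 11.5% of all genes). Arr1, an arrestin that ends the light response in the eye, had 0.532 and 1.34 FPKM in CG9879 testes, or 2 and 6 fragments, against 36.7 and 34.99 FPKM in wt testes, or 183 and 187 fragments (log2 fold change -4.28, SE 0.22, limma adjusted p = 3.23e-06). The other 10 libraries of the series had 0 to 1.02 FPKM, so Arr1 was high in the wt libraries alone. Those 10 come from testes blocked before or arrested as spermatocytes, and the part of this in their levels was not tested. Rh5, a rhodopsin, had 0.566 and 0.386 FPKM in CG9879 testes, against 2.53 and 2.53 FPKM in wt testes, and its call was lost with any 1 library left out (adjusted p up to 0.0964). The third, ninaC, a myosin of photoreceptors, had 0.0946 and 0.123 FPKM in CG9879 testes, or 1 and 1 fragments, against 0.736 and 0.896 FPKM in wt testes, or 11 and 13 fragments (log2 fold change -0.71). Its adjusted p was 0.491 with quantile normalization, and the authors' deposited table has it the other way round, at 1.11 in the mutant and 0.834 in wt. ninaE, the main rhodopsin of the eye, stayed under the filter, at 0.184 and 0.160 FPKM in CG9879 testes, against 0.171 and 0.160 FPKM in wt testes.

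Pigmentation genes are often mutated in laboratory stocks. Of 11 tested pigmentation genes, 0 rose and 3 fell (27.3%, against 11.5% of all genes). bw, an eye pigment transporter, was listed at 0 in both CG9879 libraries, against 1.26 and 1.61 FPKM in wt testes, and shares exons with another gene. w, its partner in the transporter, had 2.14 and 2.62 FPKM in CG9879 testes, against 4.95 and 6.47 FPKM in wt testes (log2 fold change -0.98, limma adjusted p = 0.00873, and 0.0564 without wt replicate 2). pr, an enzyme of pteridine synthesis that also shares exons with another gene, fell with a log2 fold change of -0.84 and an adjusted p of 0.057 without CG9879 replicate 2.

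Of 45 genes of detoxification and metal binding, 2 rose and 5 fell (15.6%, against 11.5% of all genes), with a median of 0.10. The glutathione transferases GstE3 and GstE8, neighbours on 2R, moved in opposite directions. GstE8 had 5.28 and 5.39 FPKM in CG9879 testes, against 56.6 and 56.6 FPKM in wt testes (log2 fold change -3.18, SE 0.20, limma adjusted p = 1.24e-05). GstE3 had 74.1 and 81.5 FPKM in CG9879 testes, against 26.2 and 27.4 FPKM in wt testes (means 77.8 ± 5.23 and 26.8 ± 0.859 FPKM, SD, n = 2 each; limma adjusted p = 0.00335). In the 10 libraries of the other genotypes GstE8 ranged from 5.52 to 12.8 FPKM and GstE3 from 73.3 to 285.6 FPKM. For both genes the wt libraries thus lay outside the range of the other genotypes, whose testes lack the stages after spermatocytes. Without both libraries with accessory gland transcripts, the adjusted p of GstE3 was 0.082. Cyp4p1, a cytochrome P450, rose to 19.3 and 19.7 FPKM in CG9879 testes, against 2.90 and 2.72 FPKM in wt testes (log2 fold change 2.43, SE 0.20).

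Of 17 tested gut enzymes, 0 rose and 3 fell (17.6%, against 11.5% of all genes), among them the amylases Amy-d and Amy-p, near-identical copies. Amy-p had 0.306 and 0.133 FPKM in CG9879 testes, against 16.01 and 12.7 FPKM in wt testes (log2 fold change -3.65, SE 0.28). The level of Amy-p in the other genotypes was 7.48 to 190.4 FPKM, above both CG9879 libraries. Amy-d had 0.153 and 0.267 FPKM in CG9879 testes, against 18.01 and 11.5 FPKM in wt testes. Its level in the other genotypes was 0.424 to 214.2 FPKM, so its lowest level there was close to that in CG9879. How reads were assigned to the copies was not tested. Of 26 immune genes, 0 rose and 2 fell (7.69%, against 11.5% of all genes), the antimicrobial peptide genes Mtk and Drs. Drs had 1.52 and 0 FPKM in CG9879 testes, against 25.7 and 6.04 FPKM in wt testes. Neither was called without wt replicate 1, where both were highest, or without CG9879 replicate 2, and Mtk was not called without CG9879 replicate 1 (adjusted p up to 0.0812 for Mtk and 0.148 for Drs). Of 16 heat shock genes 1 rose and 1 fell (12.5%, against 11.5% of all genes), and of 9 eggshell genes 0 were called.

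The genes in the next paragraphs were chosen after their values were seen, from those called here, marked in the authors' deposited table and sharing no exon with another gene. Acyp, an acylphosphatase on 2L at 13912083 to 13912652, had 1.81 and 4.47 FPKM in CG9879 testes, or 2 and 5 fragments, against 163.7 and 143.1 FPKM in wt testes, or 221 and 222 fragments (log2 fold change -5.30, SE 0.34, limma adjusted p = 1.31e-05). The other genotypes had 0 to 2.69 FPKM, so Acyp, like Arr1, was high in the wt testes alone. Those genotypes are blocked before or arrest as spermatocytes, and the part of this in their levels was not tested. CG34025 was listed at 0 in both CG9879 libraries, against 18.03 and 15.6 FPKM in wt testes, with 0 to 0.331 FPKM in the other genotypes. CG34453 was listed at 0 in both CG9879 libraries too, against 22.4 and 18.1 FPKM in wt testes, but reached 20.7 FPKM in mip40 testes. The authors' deposited table gives Acyp, CG34025 and CG34453 at exactly 1 in the mutant, a value it lists for 1034 transcripts of the mutant that are above 0 in wt, and never for wt.

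Other genes were lower by smaller factors. Ser, a Notch ligand, had 1.28 and 0.869 FPKM in CG9879 testes, against 9.04 and 8.77 FPKM in wt testes (log2 fold change -2.26, SE 0.14, limma adjusted p = 8.42e-06). stj, a calcium channel subunit, had 2.55 and 2.14 FPKM in CG9879 testes, against 17.7 and 18.6 FPKM in wt testes (log2 fold change -2.52, SE 0.14). Prosap, a scaffold protein of synapses, had 3.75 and 4.07 FPKM in CG9879 testes, against 22.03 and 20.8 FPKM in wt testes (log2 fold change -2.19, SE 0.17). Atg7, the enzyme that activates autophagy proteins, had 3.87 and 3.66 FPKM in CG9879 testes, against 13.7 and 14.3 FPKM in wt testes (log2 fold change -1.65, SE 0.08, limma adjusted p = 2.26e-06). The groups did not overlap for any of the 4 genes. This was likely for genes chosen among called ones, and 49.8% of all tested genes did not overlap.

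Among the rises, tun had 47.1 and 40.2 FPKM in CG9879 testes, against 6.27 and 6.74 FPKM in wt testes (log2 fold change 2.57, SE 0.09, limma adjusted p = 2.03e-07). Its level in the other genotypes, 8.21 to 28.4 FPKM, lay between both groups. Ance, a peptidase of the angiotensin-converting enzyme family that acts in spermatid differentiation, had 89.6 and 98.5 FPKM in CG9879 testes, against 36.3 and 34.7 FPKM in wt testes (log2 fold change 1.38, SE 0.14, limma adjusted p = 0.000299). Edc3, which promotes the removal of the mRNA cap, had 27.5 and 23.0 FPKM in CG9879 testes, against 8.30 and 7.73 FPKM in wt testes (log2 fold change 1.53, SE 0.10). Tsf1, an iron-binding transferrin, had 146.2 and 120.4 FPKM in CG9879 testes, against 54.9 and 34.1 FPKM in wt testes (log2 fold change 1.59, SE 0.26, limma adjusted p = 0.00429). CG9879 libraries were above wt libraries for each of these genes, a separation made likely by choosing them among called genes.

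**Figure D4:**
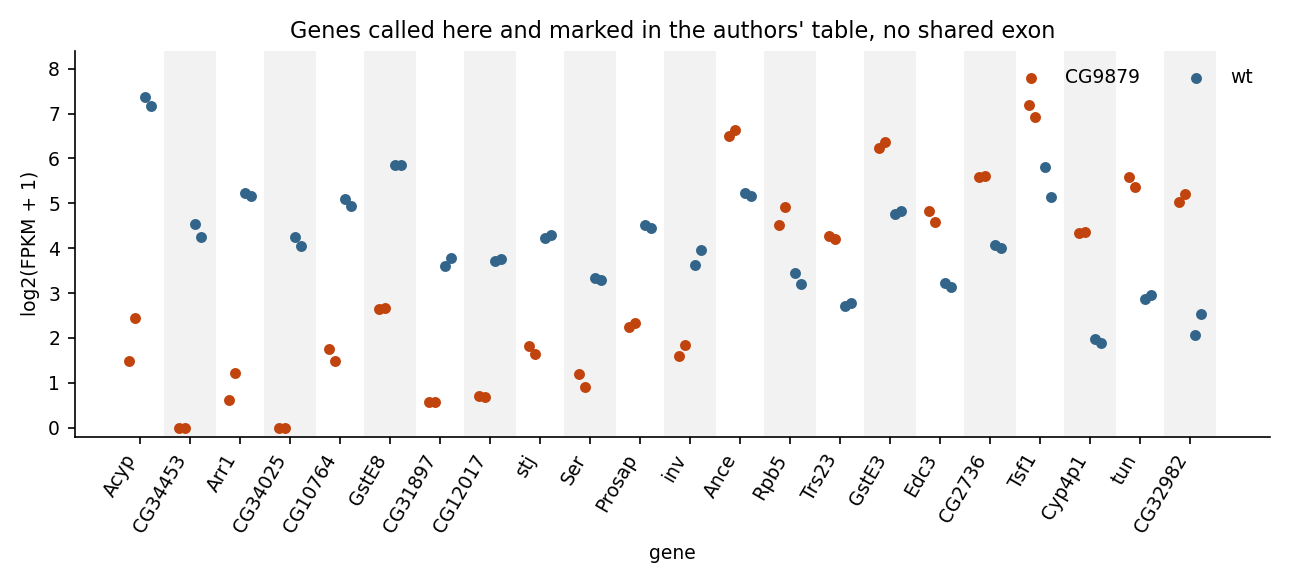
Levels of 22 genes called here, marked in the authors' deposited table and sharing no exon with another gene, as log2(FPKM + 1) on the vertical axis, with each point 1 library. Genes on the horizontal axis run from 12 that are lower in CG9879 testes (red) than in wt testes (blue) to 10 that are higher. The groups do not overlap for any of them, which is likely for genes chosen among called ones.

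By the size of the fold change alone, the lists were led by genes listed at 0 in one group, for which no fold is given. Of the 12 largest rises, 12 were listed at 0 in wt, and of the 12 largest falls 11 were listed at 0 in CG9879. Of each 12, 8 share exons with another gene and 5 are noncoding. For scale, 5208 of 16078 joined genes share exons, and 1262 of 12971 tested genes are noncoding RNAs. In all, 47 genes were listed at 0 in both libraries of one group and at 10 FPKM or more in both libraries of the other, 29 of them at 0 in CG9879 and 18 at 0 in wt. Of the 47, 36 share an exon with another gene or have different ends in the 2 annotations, against 4221 of 12971 tested genes.

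The authors' deposited table, with 1 annotation for both groups, did not show the same split for those 36. It tested 23 of them, marked 0 and had 21 within 2-fold, with a median ratio of 1.26 between the groups. swif, for example, had 51.7 and 52.2 FPKM in CG9879 testes and was listed at 0 in wt, but stands at 254.0 in the mutant and 254.5 in wt in the authors' deposited table. CG14042 had 21.4 and 22.2 FPKM in CG9879 testes and was listed at 0 in wt, against 28.5 in the mutant and 28.9 in wt in that table. The neighbours Tyler and Shawn, transporter genes that share exons, differed in opposite directions. Shawn was listed at 0 in CG9879 testes, against 50.3 and 52.6 FPKM in wt testes, while Tyler had 72.0 and 74.1 FPKM in CG9879 testes, against 12.2 and 12.2 FPKM in wt testes. The authors' deposited table has Shawn at 4.51 in the mutant and 3.45 in wt, and Tyler at 66.7 in the mutant and 57.3 in wt, summed over its transcripts. How reads were assigned to the pair was not tested.

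The remaining 11 genes share no exon and have the same ends. Of these, 8 are noncoding, 5 at 0 in CG9879 and 3 at 0 in wt, 1 is snRNA:U2:14B, a spliceosomal RNA at 0 in CG9879, and 2 are protein-coding, CG34025 and CG34453, both marked in the authors' deposited table. The noncoding RNA CR43839 on 2L had 61.3 and 68.9 FPKM in CG9879 testes and was listed at 0 in both wt libraries, with 17.9 FPKM in the lower of the can libraries. CR45408 on 3L was listed at 0 in both CG9879 libraries, against 59.6 and 105.3 FPKM in wt testes, and had 28.5 and 26.1 FPKM in can testes. Noncoding genes were called more often than protein-coding ones in these tables, 18.3% of 1262 against 10.9% of 11364, a difference that was not tested.

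The called genes were unevenly spread over the chromosomes. On chromosome 2, which carries CG9879, 15.2% of 2622 tested genes were called on 2L and 15.5% of 2628 on 2R. On chromosome 3 the shares were 9.87% of 2552 on 3L and 9.21% of 3073 on 3R, and on the X 6.8% of 1986. Calls at least 2-fold in size made up 6.29% of genes on 2L and 6.05% on 2R, against 3.68% on 3L, 2.64% on 3R and 1.66% on the X. The median log2 fold change was -0.02 to 0.00 on these 5 arms, against 0.00 over all genes. The small chromosomes had 14 of 88 genes called on chromosome 4 (15.9%) and 3 of 22 on the Y (13.6%). The difference in share between arms is a description and was not tested, since genes are not replicates.

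The same order was seen in other counts, which were added after the values were seen. Among genes with the same ends and no shared exon, 15.1% were called on 2L and 15.5% on 2R, against 9.27% on 3L, 8.72% on 3R and 6.28% on the X. The authors' deposited table marks 2.46% of tested transcripts on 2L and 2.55% on 2R, against 1.31% on 3L, 0.891% on 3R and 0.603% on the X. Of the 116 genes called in both, 35 lie on 2L, 44 on 2R, 17 on 3L, 12 on 3R, 7 on the X and 1 on chromosome 4. In windows of 2 Mb, the median share called was 15.4% on 2L, 15.7% on 2R, 10.5% on 3L, 9.43% on 3R and 7.25% on the X. Windows ran from 11.8% to 19.4% along 2L, 9.36% to 20% along 2R and 4.64% to 16.1% along 3L. They ran from 5.19% to 13.9% along 3R and from 2.26% to 11.7% along the X. Only the ranges of 2L and the X did not overlap. The comparison of mip40/bam with bam shares the difference in annotation but no library. Its shares were 31.4% on 2L, 38.1% on 2R, 33.3% on 3L, 36.3% on 3R and 42.3% on the X, the highest of these 5 arms. That comparison also carries the mutation of mip40, so its shares cannot show what annotation alone does.

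**Figure D5:**
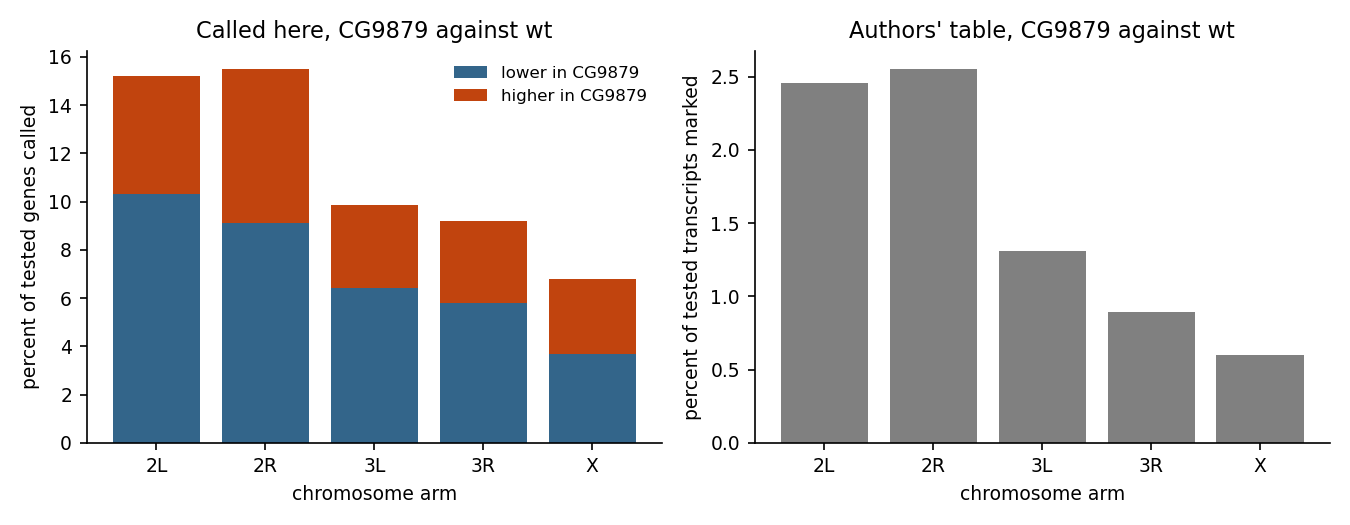
Share of tested genes called in CG9879 against wt (left, in percent, red higher and blue lower in CG9879) and share of tested transcripts marked in the authors' deposited table (right, in percent), for the 5 major chromosome arms on the horizontal axis. Both are highest on 2L and 2R and lowest on the X.

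The authors' deposited table lists transcripts, and 1 gene had transcripts marked in both directions while its total was not called. This observation was made after the values were seen. sut4, a sugar transporter on 2R, had 457.5 and 478.4 FPKM in CG9879 testes, against 510.7 and 501.1 FPKM in wt testes (log2 fold change -0.11, SE 0.11, limma adjusted p = 0.61). In the authors' deposited table its transcript RA stands at 179.9 in the mutant and 537.9 in wt, and its transcript RB at 369.0 in the mutant and 31.5 in wt, both with a q-value of 0.00621. It was the only gene with transcripts marked in both directions in that table. SIP2 came close there. Its transcript RE, which is marked, stands at 373.2 in the mutant and 824.1 in wt (q-value 0.0106). Its transcript RG, which is not marked, stands at 616.2 in the mutant and 231.8 in wt (q-value 0.0538). That table gives no values for single libraries, so the spread between replicates is not known.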

How the data were processed

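Per the labels, TruSeq libraries of polyadenylated RNA were run on a MiSeq sequencer. TopHat, Cufflinks and Cuffdiff were used with the builds dm3 and dm6, per the submitters' processing notes; no source used here gives versions or a strand setting. The authors deposited FPKM per gene for each library, and a table of values per transcript for kol against wt with p-values and q-values. FPKM holds no counts, so no count model was fitted; fragments per gene were worked out from the FPKM intervals and cover counting error only. A 0 can be a failed estimate.

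The per-library tables were joined by symbol: 16166 symbols were used once in both, 16084 overlapped in position, 15718 (97.7%) had the same ends, and 6 with failed estimates were removed, leaving 16078 genes. Of these, 12971 reached an FPKM of 1 in 2 or more of the 14 libraries and were tested. On log2(FPKM + 1), linear models with a variance trend were fitted over 7 groups in limma 3.58.1 (R 4.3.3; 7 residual degrees of freedom, two-sided, Benjamini-Hochberg over all genes tested); Python 3.11.15 with pandas 2.3.3, numpy 2.4.6 and matplotlib 3.10.9 made tables and plots. On simulated data known changes were recovered with the right sign, but the share of false calls was well above the nominal level in the run kept, and above it in each repeat, so the counts of calls may hold more false calls than the threshold implies. Of 14012 genes in the transcript table, 12414 were matched through RefSeq locus tags. Exon sharing, on either strand, comes from the BDGP6.54 annotation; shared, antisense and near-identical genes are uncertain.

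The members, the 20 gene lists and the alternatives were chosen with earlier results of these data known. Named genes were CG9879, its 5 nearest tested genes on each side, the 12 largest rises and falls among called genes (same ends, mean of at least 10 FPKM in a group, no overlap, not on the accessory gland list), up to 3 called members of each list in each direction, and genes at 0 in one group and at least 10 FPKM in the other. ptc and the context genes (dj, Mst87F, betaTub85D, twe, bol, aly, comr, sa, kl-5, SP, Mhc, elav, ninaE, Tyler, sut4, SIP2) were named outside the rule, after values were seen. So were the genes called in both tables, and the counts by exon sharing and by chromosome arm were also added then. Alternatives were other pseudocounts, filters, scalings, sets of genes and libraries, each replicate left out, a replicate block and a fold threshold.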

Additional observations from a re-analysis of the deposited data

How the results depend on the processing

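The log2 fold change of CG9879 was -5.74 to -4.69 under 17 alternatives, with an adjusted p under 0.05 in each. The total of 1492 called genes (553 higher, 939 lower) was 954 with a mean FPKM of at least 10 (558 lower). It was 752 among protein-coding genes sharing no exon (267 higher, 485 lower) and 325 with only the 4 libraries (122 higher, 203 lower). At 2-fold or more it was 536 (173 higher, 363 lower). The authors' deposited table marks 179 genes through 180 transcripts, 99 transcripts higher and 81 lower. Fewer genes or samples enter the first 3 of these. Quantile normalization gave 603 lower, and the fit without both libraries with accessory gland transcripts 609 lower; the cause was not tested. Calls numbered 989 (without wt replicate 1) to 1275 (without CG9879 replicate 1), with 387 to 488 higher and 588 to 860 lower. The replicate block, by number, gave 1395 calls, 518 higher and 877 lower. Replicate numbers of CG9879 and wt deviated in opposite directions (correlation -0.374), and a crossed replicate block, added after seeing the data, gave 1531 calls. None of the 209 called genes followed by name changed direction in the other fits of the per-library tables; 88 of them held with only the 4 libraries. Of 78 named called genes with a value in the authors' deposited table, 9 have the opposite direction there: Rdl, ninaC and 7 genes listed at 0 in one group that share exons.
At the depth of these libraries, short genes under 1 FPKM rest on a few fragments.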
